A study of Flaveria robusta and Flaveria sonorensis and Flaveria ramosissima with 24 samples.

Results

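Leaf transcript levels of the C4 plant Flaveria trinervia were compared with those of the C3 plant Flaveria robusta, both kept in control air. The comparison used 3 control libraries of each species, which are 6 of the 24 libraries of the series. A gene was taken if its mean TPM reached 1 in either group, where TPM is a length-corrected share of the transcripts of a library. This gave 16851 of the 29562 rows of the table. Just inside that limit, 282 genes had a higher group mean between 1 and 1.1, and just outside it 290 genes had one between 0.9 and 1.

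The series holds 4 Flaveria species, each with 3 control libraries and 3 libraries from plants kept at low CO2 for 2 weeks. Total RNA came from mature leaves that had newly expanded. Plants of every group grew at 22 °C and 70% humidity, with 16 h of light at 200 µmol m-2 s-1 and 8 h of dark. The labels set CO2 to 380 for the control and to 100 for low CO2, written with the light-flux unit µmol m-2 s-1, whose reading for CO2 the sources used here leave unexplained. F. sonorensis and F. ramosissima, which are C3-C4 intermediate species, and the low CO2 libraries enter below only as further libraries in which the genes of the comparison were looked up. Nothing in the labels says that replicate libraries came from separate plants. The p-values therefore measure the spread between these libraries, which may be technical. A whole leaf was sampled, so a difference in the number of cells of a type and a difference in RNA per cell cannot be told apart.

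In C3 plants, Rubisco in the mesophyll fixes CO2 directly, and its side reaction with oxygen feeds photorespiration. In C4 plants such as F. trinervia, PEP carboxylase in the mesophyll fixes carbon into a C4 acid, which moves to the bundle sheath and releases CO2 around Rubisco there. Flaveria is used to study this change because the genus holds C3, intermediate and C4 species that are closely related. The files give genes as numbered rows and do not pair these IDs with names, so no gene of the C4 cycle, of photorespiration or of any other pathway could be looked up. The genes are therefore described by their levels, ranks and behaviour in other libraries, and 4 of them by their IDs.

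Levels in the 2 species rest on whatever reference sequences lay behind each species, which the sources used here do not state. Species and reference cannot be told apart in any value below. The 6 libraries summed to between 914241 and 926083 TPM, and the median-of-ratios factors (the factor by which the typical gene of a library stands above its geometric mean over the libraries) lay between 1.01 and 1.04 for 5 of them. F. trinervia control replicate 3 had a factor of 0.90. Every count below is therefore given for the deposited TPM and, where stated, after division by these factors. Within a species, Spearman correlations between libraries across the 16851 genes were 0.959 to 0.983 in F. robusta and 0.969 to 0.985 in F. trinervia. Between species they were 0.480 to 0.500. Across the 11252 genes with a mean of at least 1 in both species the values between species were 0.688 to 0.715, still below the 0.944 to 0.983 seen within a species.

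How far the species differed was asked first for those 11252 genes, since a gene that entered only through 1 species had to differ. Of them, 3386 were higher and 3489 lower in F. trinervia at a Benjamini-Hochberg adjusted p below 0.05 in limma on log2(TPM + 1). Together these are 6875 genes, or 61.1%. Over all 16851 genes tested, 71.8% were called, 34.5% higher and 37.3% lower. When the 11252 genes were fitted alone, 59.3% were called. With median-of-ratios scaling 3741 were higher and 3423 lower, and no gene was called in opposite directions by the scalings. In size, 1818 of the higher and 1919 of the lower genes differed by at least 2-fold, and 205 and 195 by at least 8-fold. The median absolute log2 difference of the 11252 genes was 0.67, with quartiles of 0.30 and 1.25. By comparison, the median SD between libraries was 0.18 in F. robusta and 0.21 in F. trinervia on the same log2 scale, and the median SE of a difference was 0.17. The typical gene thus differed between the species by more than replicates of 1 species did.

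The remaining genes reached a mean TPM of 1 in 1 species only. Of the 2578 that did so in F. trinervia, 2425 were called higher, and of the 3021 in F. robusta, 2798 were called lower. Their direction follows from how they entered, so these counts describe them and support nothing further. Libraries of the 2 species did not overlap for 12769 of all 16851 genes (75.8%).

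**Figure D1:**
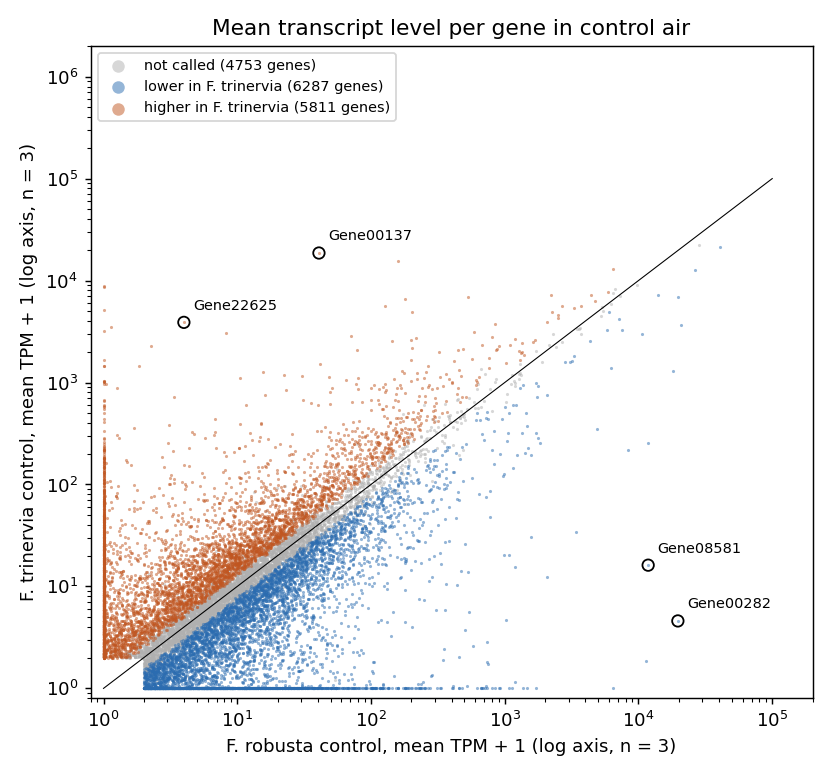
Mean TPM + 1 of 16851 genes in the control libraries of F. robusta (horizontal) and F. trinervia (vertical), both on log axes with n = 3, with genes coloured by the limma call and the line of equal levels drawn. Calls lie on both sides of the line (5811 higher, 6287 lower), the 4 circled genes lie far from it, and the points along the lower left edges are genes listed at or near 0 in 1 species.

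Among the 11252 genes, 4377 were not called. For 3523 of these the 95% interval of the difference lay within 2-fold in either direction on the log2 scale of the fit. For the remaining 854 the interval reached past 2-fold on this scale. With 3 libraries a group, a difference of that size could not be told from none for them. The scale understates folds of low genes, so in TPM an interval counted as within 2-fold can reach further for a low gene. In 65 genes the means were at least 2-fold apart without a call.

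The split of the calls between higher and lower varied with the level of the gene. Levels were taken as the mean TPM over the 6 libraries, and the 11252 genes were again used. Under 10 TPM, 1181 genes were higher in F. trinervia and 1480 lower. From 10 to 100 TPM the numbers were 1746 and 1753. From 100 to 1000 TPM, 407 were higher and 223 lower, and the median log2 difference of the 842 genes in that range was 0.46, or 0.18 under quantile normalization. At 1000 TPM or more, 52 were higher and 33 lower, or 47 and 42 under quantile normalization. The excess of higher genes between 100 and 1000 TPM was also seen under median-of-ratios scaling (429 and 215), quantile normalization (338 and 278) and rescaling without the 100 most abundant genes (380 and 253). In the low CO2 libraries 69.6% of the calls among the 842 genes were higher as deposited, but so were 58.6%, 65.0% and 59.8% of those under 10, from 10 to 100 and at 1000 TPM or more. Under quantile normalization the share was 52.9% for the 842 genes and 52.4%, 52.0% and 52.6% for the other levels, so the excess was not particular to this range there. Under median-of-ratios scaling it was 60.9% for the 842 genes and 47.8%, 55.3% and 48.4% for the other levels. When the scaling left out the top 100 genes, it was 55% against 39.5%, 47.2% and 44.6%. With these scalings, as in the deposited TPM, the share was highest from 100 to 1000 TPM. Genes at 1000 TPM or more split into 31 higher and 33 lower at low CO2 under median-of-ratios scaling. In control air, under 10 TPM, the direction of the split depended on the scaling, since quantile normalization gave 1459 higher and 1335 lower.

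The most abundant transcripts made up less of the library in F. trinervia. The 20 most abundant genes of a library held 31.9%, 31.7% and 32.6% of TPM in the F. robusta libraries and 22.5%, 21.6% and 24.2% in those of F. trinervia. These groups did not overlap, with means of 32.1% ± 0.507 and 22.8% ± 1.29 (SD, n = 3, two-sided exact permutation p = 0.1, the smallest p that 3 against 3 allows). The first 100 genes held 53.9% ± 0.562 against 47.5% ± 2.63 (SD, n = 3, exact permutation p = 0.1). For the first 500 genes the shares overlapped, at 71.1% ± 0.271 and 69.8% ± 1.91 (SD, n = 3, exact permutation p = 0.4). Put the other way, 74, 76 and 69 genes were enough to hold 50% of TPM in the F. robusta libraries, while 123, 139 and 98 genes were needed in F. trinervia (exact permutation p = 0.1, n = 3). The lowest of these in F. trinervia was again control replicate 3.

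**Figure D2:**
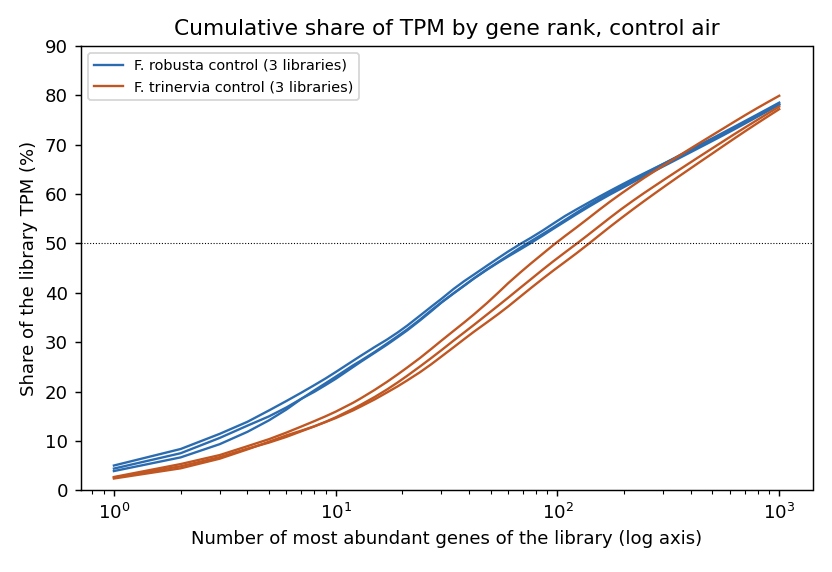
Cumulative share of TPM (%) against the number of most abundant genes of a library (log axis) for the 3 control libraries of each species, with 50% dotted. The F. robusta curves lie above those of F. trinervia over the first 100 genes (53.9% against 47.5% there) and come close to them at 500 (71.1% against 69.8%).

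The number of genes detected at a TPM of at least 1 was 14110, 14014 and 14310 in F. robusta and 13858, 13823 and 13556 in F. trinervia. All 3 F. trinervia libraries lay below those of F. robusta (exact permutation p = 0.1, n = 3). At a level of 0.1 TPM this difference was gone, with means of 17312 ± 176 and 17325 ± 91.0 genes (SD, n = 3, exact permutation p = 1).

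The genes at the top of the 2 leaf transcriptomes overlapped in part. Of the 10 most abundant genes of each species, 3 were shared. Of the 20 most abundant 10 were shared, of the 100 most abundant 57, and of the 500 most abundant 267. The 57 genes that ranked among the first 100 in both species divided into 21 higher in F. trinervia, 16 lower and 20 not called. For all 20 of those not called, the 95% interval lay within 2-fold. By comparison, 61.1% of the 11252 genes were called, and 73.9% of those among them at 1000 TPM or more. Calls were thus common in both backgrounds, so the split does not mark out the shared genes. The 43 genes that ranked among the first 100 only in F. trinervia had means of 1391 to 18617 TPM there and a median of 199 TPM in F. robusta, where their median rank was 463. Of these, 16 lay past rank 1000 in F. robusta and 7 were listed at 0 in all 3 of its libraries. The 43 that ranked there only in F. robusta had means of 1132 to 19696 TPM, a median of 316 TPM in F. trinervia and a median rank of 368 there. Of these, 12 lay past rank 1000 in F. trinervia and 4 were listed at 0. All 43 of the former were called higher and 35 of the 43 latter were called lower, counts that the choice by rank largely fixes.

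The first gene in F. trinervia had 22186 ± 3723 TPM there (SD, n = 3), and it was the second gene in F. robusta with 28114 ± 2613 TPM. The difference was -0.35 on the log2 scale with an SE of 0.160 and was not called by limma (adjusted p = 0.0852). Even so, its F. trinervia libraries (23862, 17920 and 24778 TPM) all lay below those of F. robusta (25388, 28355 and 30598 TPM). At low CO2 it was called lower, with a log2 difference of -0.63 (limma adjusted p = 0.0413). The first gene in F. robusta had 35636, 40154 and 45810 TPM in its libraries and was the second in F. trinervia with 21073, 18978 and 24228 TPM. These libraries did not overlap, and the gene was 0.92 lower in F. trinervia on the log2 scale (SE 0.148, limma adjusted p = 0.00111). By mean TPM the leading pair of transcripts was thus the same in both leaves. Both had lower libraries in F. trinervia, and 1 of the pair was called lower in control air. In F. trinervia replicate 2 the third gene by mean stood above both of the pair, at 21858 TPM.

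The 10 genes that gained most TPM in F. trinervia together held 1.02%, 1.04% and 1.11% of TPM in the F. robusta libraries and 9.76%, 10.9% and 10.6% in those of F. trinervia. Of these, 7 had a mean of at least 1 TPM in both species and 3 were listed at 0 in F. robusta. The second of them had 145, 191 and 142 TPM in F. robusta and 15901, 17329 and 13070 TPM in F. trinervia. It was 6.59 higher on the log2 scale (SE 0.172, limma adjusted p = 1.46e-07) and moved from rank 597 to rank 4. The sixth had 497, 462 and 626 TPM against 6477, 6654 and 7733 TPM, a log2 difference of 3.72 (SE 0.155, limma adjusted p = 1.1e-06). At the other end of this list, the fifth gene was already the 20th most abundant in F. robusta, with 6425 ± 340 TPM, and was 0.99 higher in F. trinervia on the log2 scale at 12998 ± 3182 TPM (SD, n = 3, limma adjusted p = 0.00219). The list therefore held both genes far down the ranking of F. robusta and genes that were abundant in both species.

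The 10 genes that lost most TPM held 20.6%, 20.1% and 21.1% of TPM in the F. robusta libraries and 5.04%, 4.72% and 5.32% in those of F. trinervia. None was listed at 0 in F. trinervia, and 9 had a mean of at least 1 TPM there. The eighth had 10883, 11627 and 11881 TPM in F. robusta and 0.76, 0.52 and 1.35 TPM in F. trinervia. It was the 11th most abundant gene of F. robusta and the 14154th of F. trinervia, a log2 difference of -12.60 (SE 0.178, limma adjusted p = 2.95e-08). The ninth had 13333, 12584 and 9203 TPM against 268, 236 and 251 TPM. The fourth had 20225, 16065 and 17636 TPM against 1501, 1019 and 1382 TPM, and here the lower species still kept the gene at rank 104.

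**Figure D3:**
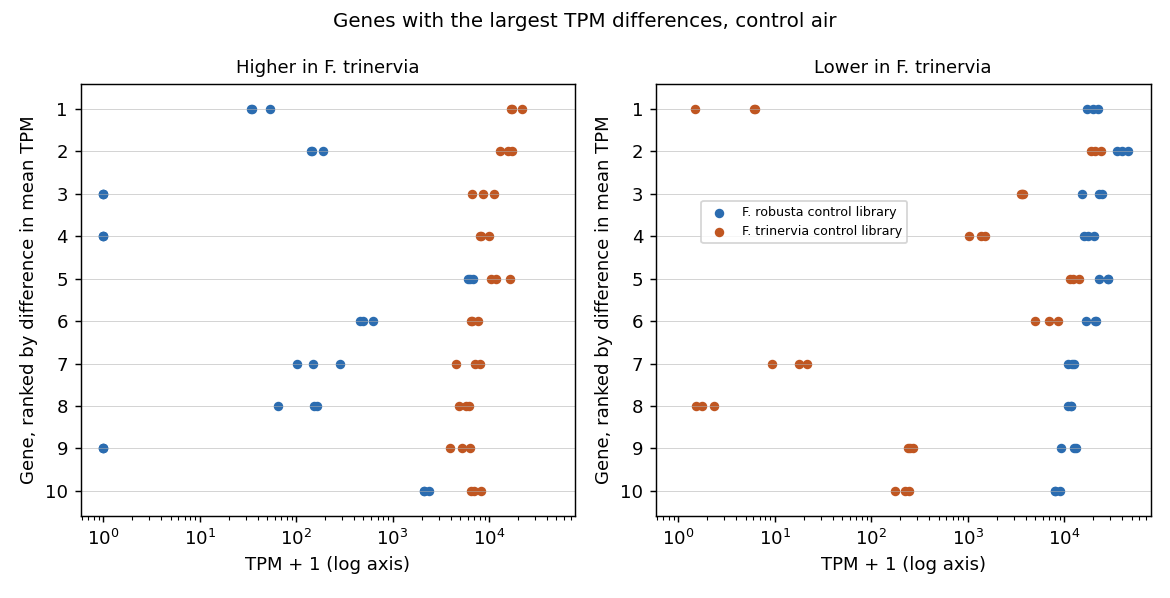
TPM + 1 (log axis) in each of the 6 control libraries for the 10 genes with the largest gain (left) and the 10 with the largest loss (right) of mean TPM in F. trinervia, ordered by the size of the difference. No gene has overlapping groups, and 3 genes on the left lie at a TPM of 0 in all F. robusta libraries.

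Genes for closer description were taken by rule from those at 1 TPM or more in both species and called under both scalings, with libraries that did not overlap. In each direction these were the gene with the largest difference in mean TPM and the gene with the largest log2 difference. Where both were the same gene, the next by log2 difference was taken. This applied to the lower direction, where Gene00282 held both and Gene08581 came next. What each of them encodes is not given in the files. Their control levels chose them, so the control differences are descriptive, whereas the low CO2, F. sonorensis and F. ramosissima libraries played no part in the choice.

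Gene00137 had 34.0, 33.0 and 52.4 TPM in the F. robusta control libraries and 17175, 21858 and 16818 TPM in those of F. trinervia. It went from rank 2276 to rank 3, and the log2 difference was 8.86 with a 95% interval of 8.35 to 9.36 (limma adjusted p = 1.07e-07). Under median-of-ratios scaling the log2 difference was 8.92. At low CO2 the F. robusta libraries had 717, 622 and 736 TPM and the F. trinervia libraries 30396, 31321 and 46288 TPM. The gene was thus higher at low CO2 than in control air in every library of both species. The species difference was 5.68 on the log2 scale there (limma adjusted p = 1.49e-06), and the change of -3.18 from control air passed the interaction test (SE 0.306, limma adjusted p = 0.000133). In the intermediate species the control libraries held 60.7, 202 and 148 TPM in F. sonorensis and 3122, 2185 and 1427 TPM in F. ramosissima. All libraries of F. ramosissima lay above those of F. sonorensis and below those of F. trinervia, also after median-of-ratios scaling.

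Gene22625 had 0.920, 7.99 and 0.0600 TPM in F. robusta and 2821, 4247 and 4595 TPM in F. trinervia. Its F. robusta level rests on replicate 2, so the log2 difference of 10.50 had a wide 95% interval of 8.77 to 12.22 (limma adjusted p = 1.39e-05). Leaving out 1 library at a time gave log2 differences from 9.84 to 11.38. At low CO2 it had 0.320, 0.0300 and 0.200 TPM in F. robusta and 3473, 6408 and 3035 TPM in F. trinervia, and the log2 difference of 11.76 did not differ detectably from that in control air (interaction 1.26, SE 0.862, limma adjusted p = 0.333). The control libraries of F. sonorensis had 2.88, 3.63 and 5.68 TPM and those of F. ramosissima 31.7, 33.6 and 7.63 TPM. Both intermediate species therefore lay far below F. trinervia, and both overlapped F. robusta as deposited, F. ramosissima only through its replicate 3 and F. robusta replicate 2.

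Gene00282, the fifth most abundant gene of F. robusta, had 19646, 17154 and 22289 TPM there and 5.26, 5.03 and 0.470 TPM in F. trinervia, where it ranked 10306th. The log2 difference was -12.33 with a 95% interval of -13.61 to -11.04 (limma adjusted p = 1.39e-06). At low CO2 the levels were 29115, 41676 and 38704 TPM against 7.68, 3.82 and 2.26 TPM. The difference of -12.77 there was not detectably different from that in control air (interaction -0.45, SE 0.711, limma adjusted p = 0.696). F. sonorensis had 5972, 9066 and 7723 TPM and F. ramosissima 3354, 3379 and 4864 TPM, so both lay between F. robusta and F. trinervia. Their order between themselves changed with the scaling, with scaled means of 4656 ± 1394 and 6925 ± 1916 (SD, n = 3).

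Gene08581 had 12127, 10830 and 12474 TPM in F. robusta and 20.4, 8.34 and 16.7 TPM in F. trinervia. Its rank was 9 in the former and 5031 in the latter, and the log2 difference was -9.60 with a 95% interval of -10.30 to -8.89 (limma adjusted p = 3e-07). At low CO2 it had 19590, 24788 and 24902 TPM against 16.5, 8.25 and 10.96 TPM, a log2 difference of -10.85 (interaction -1.25, SE 0.422, limma adjusted p = 0.0615). F. sonorensis held it at 16363, 22341 and 19525 TPM, above every F. robusta library, but after scaling its mean was 11870 ± 2990 against 10996 ± 850 in F. robusta (SD, n = 3). F. ramosissima had 2050, 1705 and 1877 TPM and lay between F. sonorensis and F. trinervia under both scalings.

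**Figure D4:**
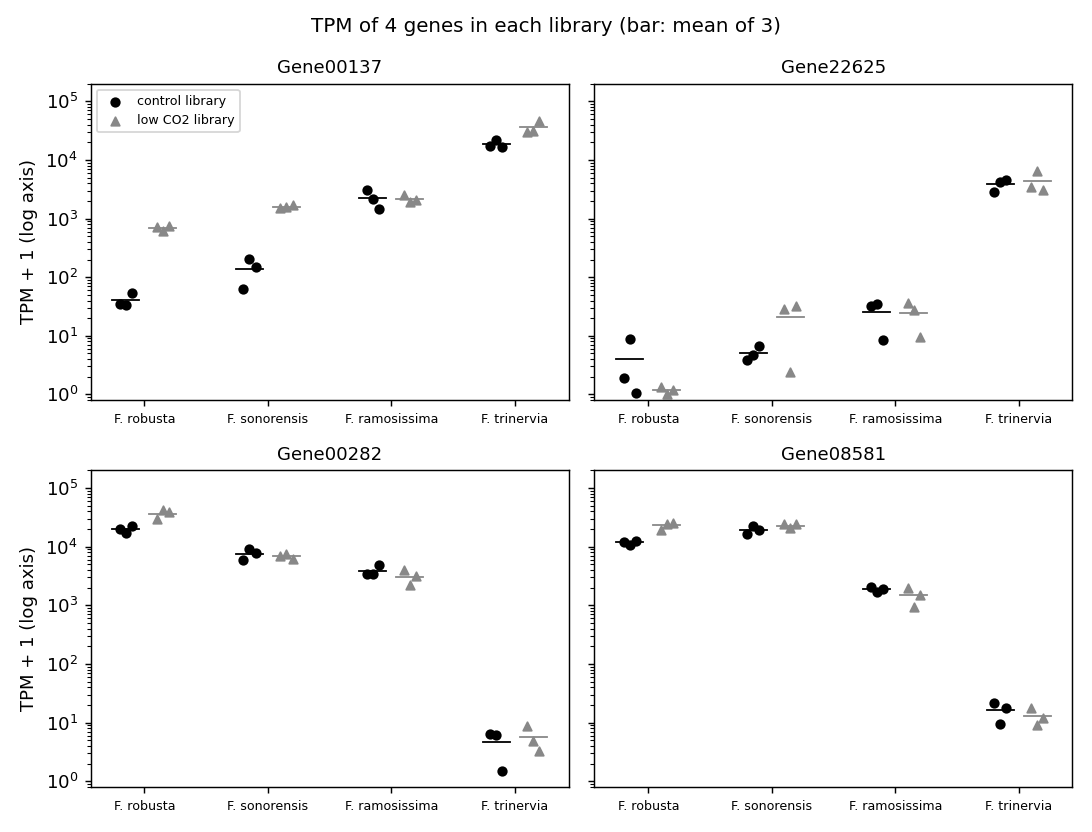
TPM + 1 (log axis) of 4 genes in the control (circles) and low CO2 (triangles) libraries of the 4 species, with a bar at the mean of 3 libraries. The upper 2 genes are highest in every F. trinervia library, and the lower 2 are lowest in every F. trinervia library. F. ramosissima lies between F. robusta and F. trinervia in the control libraries of Gene00137, Gene00282 and Gene08581.

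Some of the largest differences were in rows listed at 0 in every library of 1 species. Of the 13830 genes at 1 TPM or more in F. trinervia, 1697 (12.3%) were listed at 0 in all 3 F. robusta control libraries. Conversely, of the 14273 genes at 1 TPM or more in F. robusta, 1765 (12.4%) were listed at 0 in F. trinervia. Rows at 0 were found at every level, with 79 genes at 100 TPM or more and 11 at 1000 TPM or more in F. trinervia, and 80 and 6 in F. robusta. The highest means were 8892 and 6411 TPM. These rows held 6.91% to 7.54% of TPM in the F. trinervia libraries and 5.31% to 5.60% in those of F. robusta. No fold is given for them, because a gene that was not expressed and a row with no sequence in the reference of that species cannot be told apart.

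The zeros recurred in the low CO2 libraries of the same species, which were not used to find them. A row with no sequence in the reference of a species would be at 0 there too. The recurrence therefore cannot separate such a row from a gene that was not expressed. Of the 1697 genes at 0 in the F. robusta controls, 1657 were also at 0 in all 3 of its low CO2 libraries, and of the 1765 at 0 in the F. trinervia controls, 1706 were. The other 2 species differed from each other here. Of the 1657 genes, 973 (58.7%) were at 0 in the F. sonorensis controls and 247 (14.9%) in those of F. ramosissima. Of the 1706 genes, 1067 (62.5%) and 363 (21.3%) were. Over all 16851 genes the corresponding shares were 22.1% and 7.33%. Rows at 0 were thus more frequent among these genes than among all genes in both intermediate species, and more frequent in F. sonorensis throughout. Rows at 0 in every F. sonorensis control library also occurred among the most abundant genes. They made up 4 of the 10 most abundant of F. trinervia and 19 of its 100 most abundant. Of the first 10 and the first 100 of F. robusta, they made up 1 and 16. For the first 100 genes of either species this was no more than the 22.1% found over all genes.

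The low CO2 libraries of the same species share no library with the control comparison, so they allow the species difference to be looked up again. There 16338 genes met the same rule, of which 35.4% were called higher and 27.6% lower in F. trinervia (5790 and 4516 genes). The split depended on the scaling. It was nearly even under median-of-ratios scaling (5283 and 5257) and quantile normalization (5351 and 5263). Rescaling to genes at 1 TPM or more in both species kept it (5737 and 4417), and rescaling without the 100 most abundant genes turned it (4741 and 5708). The 100 most abundant genes held 63.7% ± 1.02 of TPM in F. robusta and 52.7% ± 4.75 in F. trinervia there (SD, n = 3). F. trinervia low CO2 replicate 2, at 47.5%, stood below its other replicates at 53.7% and 56.9%.

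Of the 6875 control calls among the 11252 genes, 6836 were tested at low CO2, and 4051 of these (59.3%) were called there in the same direction. They made up 70.8% of the low CO2 calls among these genes, and a further 161 were called in the opposite direction. Over the 11138 of the 11252 genes that were tested at low CO2, 32.2% were called higher and 19.2% lower. The number called in the same direction was 4416 without F. trinervia low CO2 replicate 2, 3618 without replicate 1 and 3775 without replicate 3. Over all genes the number was 8111 of 11263 control calls tested, which includes genes whose control direction followed from how they entered. Across the 11138 genes at 1 TPM or more in both species that were tested in both conditions, Pearson's r of the log2 differences was 0.796 and Spearman's rho 0.743. These describe agreement across genes, which are not independent replicates, and both sets of differences share any difference in reference. Of the 205 genes at least 8-fold higher in control air, 181 were called higher again, with a median log2 difference of 3.79 in control air and 3.26 at low CO2. Of the 195 at least 8-fold lower, 166 were called lower again, with medians of -3.68 and -2.54.

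The recurrence depended on direction and scaling. Over calls of every size, of the 3386 genes called higher among the 11252, 70.5% were called higher again at low CO2, and of the 3489 called lower, 47.7% were called lower again. With median-of-ratios scaling these shares were 61.9% and 60.4%, and with quantile normalization 62.7% and 60.3%. The gap between the directions was thus found in the deposited TPM and nearly closed when libraries were rescaled. Among control calls under 2-fold that were tested at low CO2, 62.5% of the 1556 higher and 27.7% of the 1561 lower genes were called again as deposited. Over all 11138 of these genes tested at low CO2, 32.2% were called higher and 19.2% lower as deposited. The background was thus unequal by direction too. The median log2 difference over all genes tested at low CO2 was 0.22 as deposited, against -0.06 in control air.

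**Figure D5:**
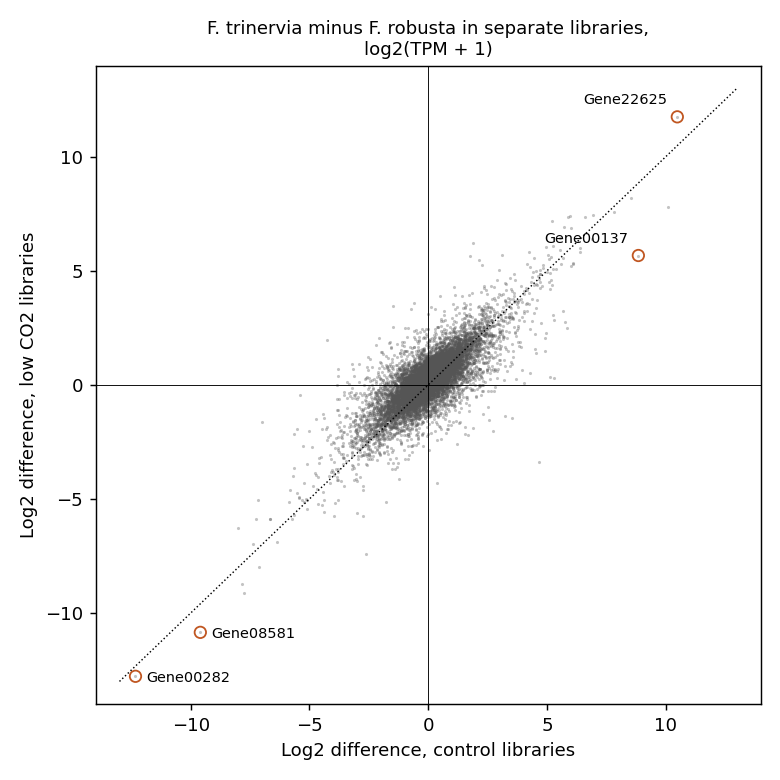
Log2 difference of F. trinervia minus F. robusta in log2(TPM + 1) for 11138 genes, in the control libraries (horizontal) and in the low CO2 libraries (vertical), which are separate libraries, with the line of equal differences dotted. The points follow the line with Pearson's r = 0.796, and Gene00137 lies below it (8.86 against 5.68).

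The share of the library behind the called genes was looked up in the same way, again among the 11252 genes. In control air, those called higher in F. trinervia held 49.8% of its TPM and 17.0% of that of F. robusta, and those called lower held 16.0% and 49.0%, values that the choice of the genes fixes. In the low CO2 libraries, the same higher genes held 49.7% ± 2.15 in F. trinervia and 18.8% ± 0.236 in F. robusta (SD, n = 3, two-sided exact permutation p = 0.1). The lower genes held 16.7% ± 0.708 and 47.9% ± 0.461 (SD, n = 3, exact permutation p = 0.1). Those not called held 25.2% ± 0.985 and 25.3% ± 0.383 (SD, n = 3, exact permutation p = 0.8).

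Of the 10 largest gains, of which 3 were listed at 0 in F. robusta, 9 were called higher again at low CO2, and of the 10 largest losses, 9 were called lower again. Over all 16338 genes tested there, 35.4% were called higher and 27.6% lower. The exception among the gains was the seventh gene. It had 284, 150 and 102 TPM in F. robusta and 7135, 7986 and 4563 TPM in F. trinervia in control air, but 575, 567 and 867 TPM and 828, 1640 and 393 TPM at low CO2, where the libraries overlapped. Its log2 difference fell from 5.28 to 0.30 (interaction -4.98, SE 0.689, limma adjusted p = 0.00106). The exception among the losses was the fifth gene, the third most abundant of F. robusta in control air. It had 22890, 28476 and 28081 TPM there and 11353, 14184 and 12429 TPM in F. trinervia. At low CO2 the F. robusta libraries held 8056, 7068 and 6711 TPM and those of F. trinervia 9061, 15751 and 10304 TPM, so the direction turned. The log2 difference went from -1.06 to 0.65 (interaction 1.71, SE 0.278, limma adjusted p = 0.00253).

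Levels in the intermediate species were then set beside those of F. robusta for the 11252 genes, as counts of genes whose 3 control libraries all lay above or all below the 3 of F. robusta. These counts move strongly with the scaling. Over the 12 control libraries the median-of-ratios factors were 1.52 to 1.87 in F. sonorensis and 0.533 to 0.595 in F. ramosissima, against 0.951 to 1.09 in F. robusta and F. trinervia. As deposited, 48.3% of the 11252 genes lay above F. robusta in F. sonorensis and 25% below, whereas in F. ramosissima 15.4% lay above and 62.3% below. After scaling the shares were 27% and 40.9% in F. sonorensis and 33.6% and 38% in F. ramosissima. The scaled values are therefore given first for the called genes. They share the F. robusta libraries with the calls, so they are a description only.

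Of the 1818 genes at least 2-fold higher in F. trinervia, 62.4% lay above F. robusta in F. ramosissima and 50% in F. sonorensis after scaling. As deposited these shares were 39.1% and 66.8%. Of the 1919 genes at least 2-fold lower, 66.4% lay below F. robusta in F. ramosissima and 73.7% in F. sonorensis after scaling, and 84.3% and 53.5% as deposited. In both species and under both scalings the share in the direction of F. trinervia was above that of all 11252 genes, while the order of the species turned with the scaling. On a line from 0 at F. robusta to 1 at F. trinervia, the median scaled position of the higher genes was 0.31 in F. sonorensis and 0.58 in F. ramosissima. For the lower genes it was 0.71 and 0.65. As deposited, these medians were 0.65 and 0.10 for the higher genes and 0.35 and 1.09 for the lower genes. For these genes of at least 2-fold, no order of the intermediate species along the line thus held under both scalings. For the 205 genes at least 8-fold higher, the medians in F. sonorensis and F. ramosissima were 0.26 and 0.63 after scaling and 0.399 and 0.404 as deposited. For the 195 at least 8-fold lower, they were 0.77 and 0.48 after scaling and 0.62 and 0.70 as deposited.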

How the data were processed

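Paired Illumina reads of 150 bp were made from leaf RNA. The deposited values were TPM per gene, with 1 column for each of 24 libraries. The submitters' processing notes name RSEM and edgeR without version or role. The sources used here do not state the reference or how genes of several species came to share a row. TPM keeps no depth, so read numbers and counting error are unknown and precision rests on 3 libraries per group. Groups came from the labels, and no library was left out. Within a group, at most 0.0815% of genes at 10 TPM or more had identical values in 2 libraries.

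Genes reaching a mean of 1 TPM in either group were compared on log2(TPM + 1), which understates folds of low genes, by limma 3.58.1 in R 4.3.3 (lmFit, eBayes with trend) over the 6 libraries. The interaction was fitted over the 12 libraries of both species. Values per library were tested by exact permutation (scipy 1.17.1, two-sided). Plots used matplotlib 3.10.9. Scripts were tested on simulated data. Alternatives were a pseudocount of 0.1, 3 other filters, 4 scalings, 2 other prior spreads, a replicate block, a fit of all 24 libraries and leaving out each library. Genes to describe were, in each direction, those with the largest TPM difference and the largest log2 difference (the next one where these were the same gene). By rank, they were the 10 largest TPM differences and the 10 most abundant genes. The members, lists and rules were chosen with earlier results of these data known.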

Additional observations from a re-analysis of the deposited data

Results flagged for a closer look

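For Gene00137 the species difference itself differed between the conditions. On the log2 scale it was 8.86 in the controls and 5.68 in the low CO2 libraries, a change of -3.18 (SE 0.306, limma interaction over 12 libraries, adjusted p = 0.000133). All 3 F. robusta libraries at low CO2 (622 to 736 TPM) lay above all 3 in control air (33.0 to 52.4 TPM), and all 3 F. trinervia libraries at low CO2 (30396 to 46288 TPM) above those in control air (16818 to 21858 TPM).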

How the results depend on the processing

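The control comparison called 12098 of 16851 genes tested, and 17 of 18 alternatives gave 8461 (of 11553 tested) to 13720 (of 21806 tested). Requiring a mean TPM of 1 in each group left 6673 calls among 11252 genes (3281 higher, 3392 lower, 3743 of at least 2-fold). It leaves out the genes that entered through 1 species, of which 94.1% and 92.6% were called. The same filter gave 5105 of 10943 genes tested at low CO2 (3175 higher, 1930 lower, 3212 of at least 2-fold) and 3543 calls shared between the conditions. A minimum mean of 5 TPM gave 6737 of 10493 genes tested at low CO2 (2681 lower, 4993 of at least 2-fold) and 5185 shared. The main rule called 10306 of 16338 genes at low CO2, so these counts move partly with the number of genes tested. Leaving out 1 library at a time gave 10952 to 11745 control calls, 8729 to 10676 at low CO2 and 7244 to 8429 shared. Rescaling without the 100 most abundant genes moved the median log2 difference from -0.06 to -0.18. The difference in genes detected, -399 at 1 TPM, reversed to 13.3 at 0.1 TPM (exact permutation p = 1). The 4 genes given by ID kept their direction and call in every alternative run. Replicate numbers were shared between species. Deviations of same-numbered control libraries correlated at -0.051, 0.091 and 0.11, and those of differently numbered ones at -0.117 to 0.066. With 3 libraries a group, such small values cannot decide whether the numbers pair libraries. With the number as a replicate block the calls were 11977 in control air, 9526 at low CO2 and 7734 shared. With 3 libraries a group and no depth, control differences smaller than 0.31 on the log2 scale were never called.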
